A study of Mus musculus with 2 samples.

Results

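Primary granules are the first granules that a developing neutrophil makes, and 7 genes whose products fill or accompany them were followed here: Elane (neutrophil elastase), Prtn3 (proteinase 3), Ctsg (cathepsin G), Mpo (myeloperoxidase), Ms4a3 (a membrane protein of granulocyte and monocyte progenitors), Fcnb (ficolin B, a secreted lectin of innate immunity) and Srgn (serglycin, the proteoglycan core to which granule proteases bind). They were chosen by symbol, with earlier results of these data known, and are 7 of the 32285 gene rows listed for each library. Elastase, proteinase 3 and cathepsin G are serine proteases and myeloperoxidase is an enzyme that makes hypochlorous acid. Their transcripts are made in promyelocytes, the proliferating stage between the granulocyte progenitor and the myelocyte, and transcription stops as the cell goes on to make secondary granules filled with cathelicidin (Camp), lactoferrin (Ltf) and lipocalin 2 (Lcn2). A mature neutrophil therefore carries the proteins but little of the RNA. In tumor-bearing mice, as in the 4T1 model, immature myeloid cells leave the bone marrow and collect in the spleen and liver, where they are counted among myeloid-derived suppressor cells (MDSCs).

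The series measured RNA of single cells from female BALB/cAnNCrl mice, 7 to 8 weeks old when purchased, that carried liver metastases of 4T1, a murine breast carcinoma line introduced by a hemisplenectomy procedure. CBL0137, a small molecule that traps the histone chaperone FACT on chromatin, was given by hepatic arterial infusion (HAI), and cells were taken 5 days later. Every animal carried tumor, so no group shows a tumor-free mouse. There were 2 droplet libraries, and the labels call one liver and the other spleen. Both held cells of 3 groups told apart by hashtag antibodies. Cells of the vehicle carried A0301, cells of the low dose group of CBL0137 carried A0305 and those of the high dose group carried A0310. Dose amounts were not given in the sources used here, and both dose groups were set against the same vehicle cells. A group was 1 pool of 2 mice in each library, so there is no replicate of any group, and no test or p-value was computed. All intervals are exact 95% intervals, and they cover counting error only; the spread between mice is not known, and cells of one pool are not replicates. The labels describe leukocytes from dissociated tissue, while the methods describe cells isolated with CD11b magnetic beads, and both libraries held T cell-like and B cell-like cells.

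The liver-labelled library held 9591 barcodes, of which 8435 carried 1 hashtag, with 68667953 UMIs (unique molecular identifiers, 1 for each captured transcript) in those cells. The spleen-labelled library held 4830 barcodes, 2988 of them with 1 hashtag, and 28272132 UMIs. Tissue transcripts went against both labels. Albumin (Alb, made by hepatocytes) had 0 UMIs in the liver-labelled library, where a limit of 3 counts applies, and 549 in the spleen-labelled library; Clec4f, a marker of Kupffer cells, had 0 and 3520. The liver sinusoidal endothelial genes Stab2 and Clec4g were at 0.262 and 0.0728 counts in every 1000000 UMIs (CPM) in the liver-labelled library against 31.2 and 86.8 CPM in the spleen-labelled library. Hepatocyte-like, endothelial-like and 4T1 tumor cell-like clusters were found in the spleen-labelled library, and the deposited files of each sample carry the name of the other organ. The libraries are therefore named by their labels throughout, and no direction between organs is drawn. There were 15 barcodes present in both.

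All 7 genes were found by Ensembl identifier in GENCODE release M21 on GRCm38 (mm10). Elane lies on chromosome 10 from 79886247 to 79888215 on the plus strand with 5 exons, and Prtn3 lies beside it on the same strand, from 79874476 to 79883174, also with 5 exons. There are 3072 bases between them. Mpo is on chromosome 11 from 87793581 to 87804413 (plus strand, 14 exons), Ctsg on chromosome 14 from 56099881 to 56102574 (minus strand, 5 exons), Ms4a3 on chromosome 19 from 11629496 to 11640851 (minus strand, 5 exons), Fcnb on chromosome 2 from 28076378 to 28084885 (minus strand, 9 exons) and Srgn on chromosome 10 from 62493833 to 62527451 (minus strand, 4 exons). All are protein-coding.

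Because the members rise and fall with neutrophil stage, the bases before their start sites are shown for 3 of them, with matches to the core letters of factors known at these genes in capitals. AGGAAGT is a core of the ETS factor PU.1, CAACGG is a core of MYB, which was also searched with T as the first letter, with T in place of the first G, and with both. CTATAA is a TATA-like element, and the core of C/EBP factors was searched as TTGCNNAA. Each sequence is read 5′ to 3′ on the strand of its gene from RefSeq (GRCm38.p6) and ends at the base before the RefSeq start; in GENCODE M21 the genes begin further upstream, so the Prtn3 stretch lies within the annotated gene there, and the stretches of Elane and Fcnb in part. Elane is at chr10:79886182-79886311 (plus strand), Prtn3 at chr10:79879537-79879666 (plus strand) and Fcnb at chr2:28084879-28085008 (minus strand).
Elane: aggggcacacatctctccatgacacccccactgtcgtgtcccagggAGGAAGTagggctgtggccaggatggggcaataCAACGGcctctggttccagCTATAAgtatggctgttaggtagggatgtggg
Prtn3: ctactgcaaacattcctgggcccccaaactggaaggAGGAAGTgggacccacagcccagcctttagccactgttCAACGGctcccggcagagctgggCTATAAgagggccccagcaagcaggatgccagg
Fcnb: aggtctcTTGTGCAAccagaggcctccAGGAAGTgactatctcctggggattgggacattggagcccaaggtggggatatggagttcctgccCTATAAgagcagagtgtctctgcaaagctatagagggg

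The first base of AGGAAGT lay at -84 in Elane, -94 in Prtn3 and -103 in Fcnb, counted from the RefSeq start. CAACGG lay at -51 in Elane and -56 in Prtn3, and CTATAA at -32, -33 and -38 in the same order as the first motif. In Fcnb the MYB core, CAACTG on the opposite strand, lay at 14, past the start and outside the stretch shown. Over windows from 250 bases before to 50 bases after the start, on both strands, 9.35% of 32851 RefSeq promoters held AGGAAGT, 28.3% a MYB core, 8.18% CTATAA and 10.8% the C/EBP core. Of the 8 promoters of the 7 genes (Srgn has 2 starts), 5 held AGGAAGT, 7 a MYB core, 3 CTATAA and 2 the C/EBP core (Fcnb and Ms4a3). Elane, Prtn3 and Fcnb were among the 78 promoters (0.237%) that held the first 3 motifs together. These are also the only members with CTATAA, and the combination leaves out the C/EBP core, so the share is no test of enrichment. AGGAAGT lay at -223 in Mpo and -206 in Ctsg, without CTATAA in either window. The letters are a description of these windows only.

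Cells were grouped by clustering each library on its own with the 7 genes and 12 further granule genes left out of the genes used for clustering, and clusters were named "X-like" from marker lists that hold none of the 7. In the myeloid lineage this gave progenitor-like cells (117 in the liver-labelled library and 160 in the spleen-labelled library), dividing immature neutrophil-like cells (246 and 154), which expressed secondary granule genes together with genes of cell division, immature neutrophil-like cells without the division genes (404 and 149), neutrophil-like cells (2540 and 837), monocyte-like cells (282 and 188) and basophil and mast cell-like cells (23 and 15). The progenitor-like cells of the liver-labelled library had 7 of 8 granulocyte progenitor markers, 7 of 9 stem and early progenitor markers and 4 of 7 erythroid markers raised. Those of the spleen-labelled library had 4 of 8, 5 of 9 and, of the monocyte markers, 2 of 8. The progenitor-like classes of the libraries are thus not of the same makeup. At a finer clustering, 45 of the 160 progenitor-like cells of the spleen-labelled library formed a subgroup with 5 of 8 monocyte markers raised.

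Genes of known stage describe the classes, but they are among the markers that named them, so their order is no result. Myb, a regulator of progenitors, was at 272 CPM in progenitor-like, 23.5 in dividing immature neutrophil-like and 10.7 in immature neutrophil-like cells of the liver-labelled library, and at 163, 18.9 and 5.7 CPM in the spleen-labelled library. Cebpe, the regulator of the switch to secondary granules, was at 26.2, 593 and 319 CPM in the same order in the first library and at 75.4, 587 and 207 CPM in the second. Camp was at 22.8, 16414 and 18702 CPM, and at 28.9, 14216 and 12356 CPM. Myb was thus highest in the progenitor-like cells, and Cebpe in the dividing class, while Camp was high in both immature classes.

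The 4 proteases Elane, Mpo, Prtn3 and Ctsg (Mpo being a peroxidase, and counted with them) were held by a small part of the cells. Progenitor-like and dividing immature neutrophil-like cells were 363 of 8435 cells (4.3%) in the liver-labelled library and held 83.3% of the 115717 UMIs of these genes. They were 314 of 2988 cells (10.5%) in the spleen-labelled library and held 96.4% of 92533 UMIs. These cells were deep, so their share of all UMIs was larger than their share of cells. Progenitor-like and dividing cells held 4346865 and 8521604 of the 68667953 UMIs of all genes in the liver-labelled library. In the spleen-labelled library they held 4219153 and 3170870 of 28272132. No UMI of any of the 4 was found in 82.4% and 68.4% of cells.

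The libraries differed in which of the pair of classes held the UMIs. Dividing immature neutrophil-like cells held 79.3% of the Elane UMIs in the liver-labelled library, and progenitor-like cells 12.0%. For the spleen-labelled library these shares were 42.2% and 56.0%. Mpo and Ctsg were held more by the progenitor-like cells than Elane was: 44.3% of Mpo and 36.4% of Ctsg UMIs in the liver-labelled library, and 77.9% and 80.6% in the spleen-labelled library. Prtn3 stood between, with 17.0% and 57.5%. Fcnb had the opposite distribution, with 0.219% and 6.85% of its UMIs in progenitor-like cells, 66.1% and 68.5% in dividing immature neutrophil-like cells and 29.1% and 13.8% in immature neutrophil-like cells. The largest holders of Srgn UMIs were mature cells, with 51.8% in neutrophil-like cells of the liver-labelled library, and 29.6% in neutrophil-like and 25.1% in macrophage-like cells of the spleen-labelled library. Not all of these shares followed abundance. Neutrophil-like cells were 30.1% of the cells of the liver-labelled library, and T cell-like cells were 28.8% there and held 8.01%. In the spleen-labelled library macrophage-like cells were 9.91% of the cells, but neutrophil-like cells were 28%, close to their share of Srgn UMIs.

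**Figure D1:**
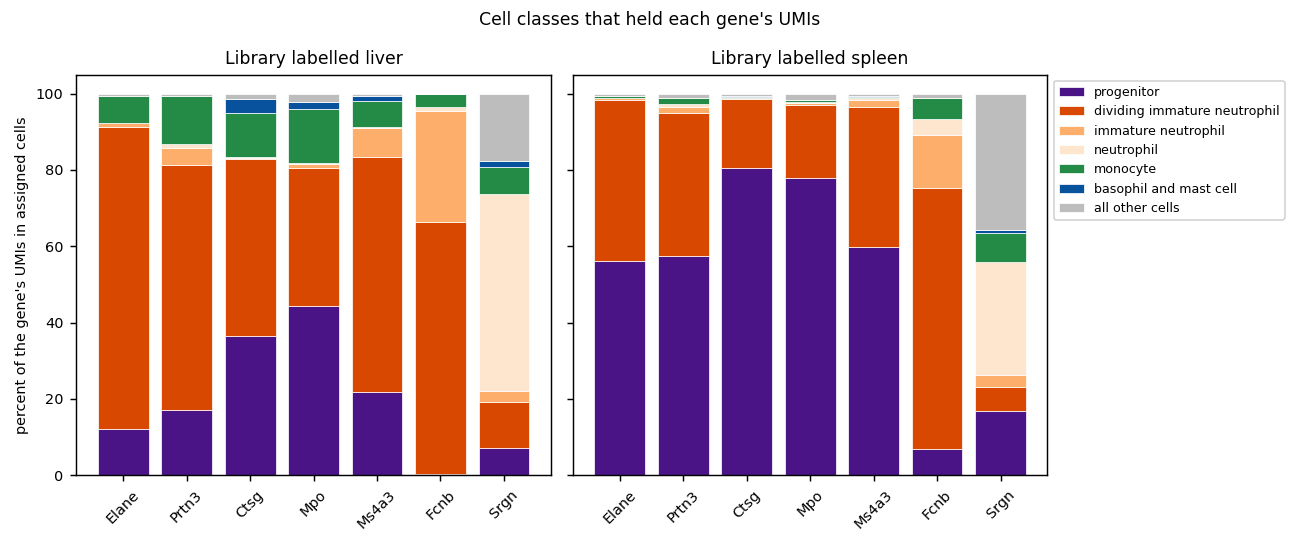
Stacked bars give, for each of the 7 genes and each library, the percent of the gene's UMIs held by each cell class (vertical axis, percent; colors mark classes). Elane, Mpo, Prtn3, Ctsg and Ms4a3 lie mostly in progenitor-like and dividing immature neutrophil-like cells, Fcnb in the 2 immature neutrophil-like classes, and Srgn mostly in mature cells.

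Elane transcripts were most abundant in dividing immature neutrophil-like cells, with levels of 2115 CPM (interval 2084 to 2146) in the liver-labelled library and 2753 CPM (2695 to 2811) in the spleen-labelled library. In progenitor-like cells the level was 626 CPM (603 to 650) in the first and 2745 CPM (2695 to 2796) in the second, where the intervals of the pair of classes overlap. Of the progenitor-like cells in the second, the 115 outside the finer subgroup with monocyte markers had 3556 CPM. The level dropped to 20.4 CPM in immature neutrophil-like and 1.39 CPM in neutrophil-like cells of the liver-labelled library, and to 77.0 and 5.58 CPM in the spleen-labelled library. T cell-like cells, which do not make elastase, had 1.20 and 2.24 CPM. The intervals of the neutrophil-like cells (0.892 to 2.07 CPM and 3.57 to 8.3 CPM) overlap those of the T cell-like cells (0.672 to 1.98 and 0.727 to 5.22 CPM).

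Prtn3 had the same order of classes in the liver-labelled library, with 4907 CPM in dividing immature neutrophil-like, 2550 in progenitor-like, 300 in immature neutrophil-like and 37.1 in neutrophil-like cells. In contrast to Elane, the level of Prtn3 in neutrophil-like cells stayed above that in T cell-like cells, which was 6.0 CPM (4.72 to 7.52) against 34.3 to 40.1 CPM for the neutrophil-like interval. The progenitor-like cells of the spleen-labelled library had 6399 CPM (6323 to 6475), above the 5544 CPM (5462 to 5626) of the dividing class. Immature neutrophil-like cells had 422 CPM there, neutrophil-like cells 76.9 and T cell-like cells 13.4 CPM. Each UMI comes from the 3′ end of 1 transcript, so levels were not divided by gene length.

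Mpo and Ctsg were highest in progenitor-like cells among these stages in both libraries. Mpo was at 1253 CPM (1220 to 1287) in progenitor-like and 524 CPM (509 to 540) in dividing immature neutrophil-like cells of the liver-labelled library, and at 2216 and 724 CPM in the spleen-labelled library. Ctsg was at 1299 and 845 CPM in the first library and at 2463 and 730 CPM in the second. Immature neutrophil-like cells had 10.6 CPM of Mpo and 5.80 CPM of Ctsg in the liver-labelled library, and 39.9 and 15.4 CPM in the spleen-labelled library. Both genes were thus lower in the dividing class than in progenitor-like cells, while Elane was not lower there in either library. For Elane in the spleen-labelled library this depends on where the boundary of the progenitor-like class is set. Without its 45 cells with monocyte markers, the remaining 115 cells had 3556 CPM of Elane, above the dividing class.

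Ms4a3 was at 484 CPM in progenitor-like and 700 CPM in dividing immature neutrophil-like cells of the liver-labelled library, and at 905 and 739 CPM in the spleen-labelled library. Fcnb was nearly absent from progenitor-like cells, with 10 UMIs over 117 cells (2.30 CPM) and 80 UMIs over 160 cells (19.0 CPM). It reached 355 and 252 CPM in dividing immature neutrophil-like cells and was still at 133 and 91.8 CPM in immature neutrophil-like cells. Fcnb is therefore the member that, like Camp and Cebpe and unlike Myb, was higher in both immature classes than in progenitor-like cells. As for Cebpe, its level was lower in the non-dividing immature class than in the dividing class in both libraries. Camp was lower there in the spleen-labelled library only.

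Srgn did not share the pattern of the proteases. Its level was 995 CPM in progenitor-like, 842 in dividing immature neutrophil-like, 175 in immature neutrophil-like and 1814 CPM in neutrophil-like cells of the liver-labelled library, so it was lowest at the stage that had most Camp. The values were 1648, 849, 764 and 2864 CPM in the spleen-labelled library, without so deep a low. Basophil and mast cell-like cells had the highest Srgn level of the named classes, 3841 and 5171 CPM, and T cell-like cells had 387 and 981 CPM. The 4T1 tumor cell-like cells, at 15.1 CPM, and hepatocyte-like cells, at 80.9 CPM, had the lowest.

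**Figure D2:**
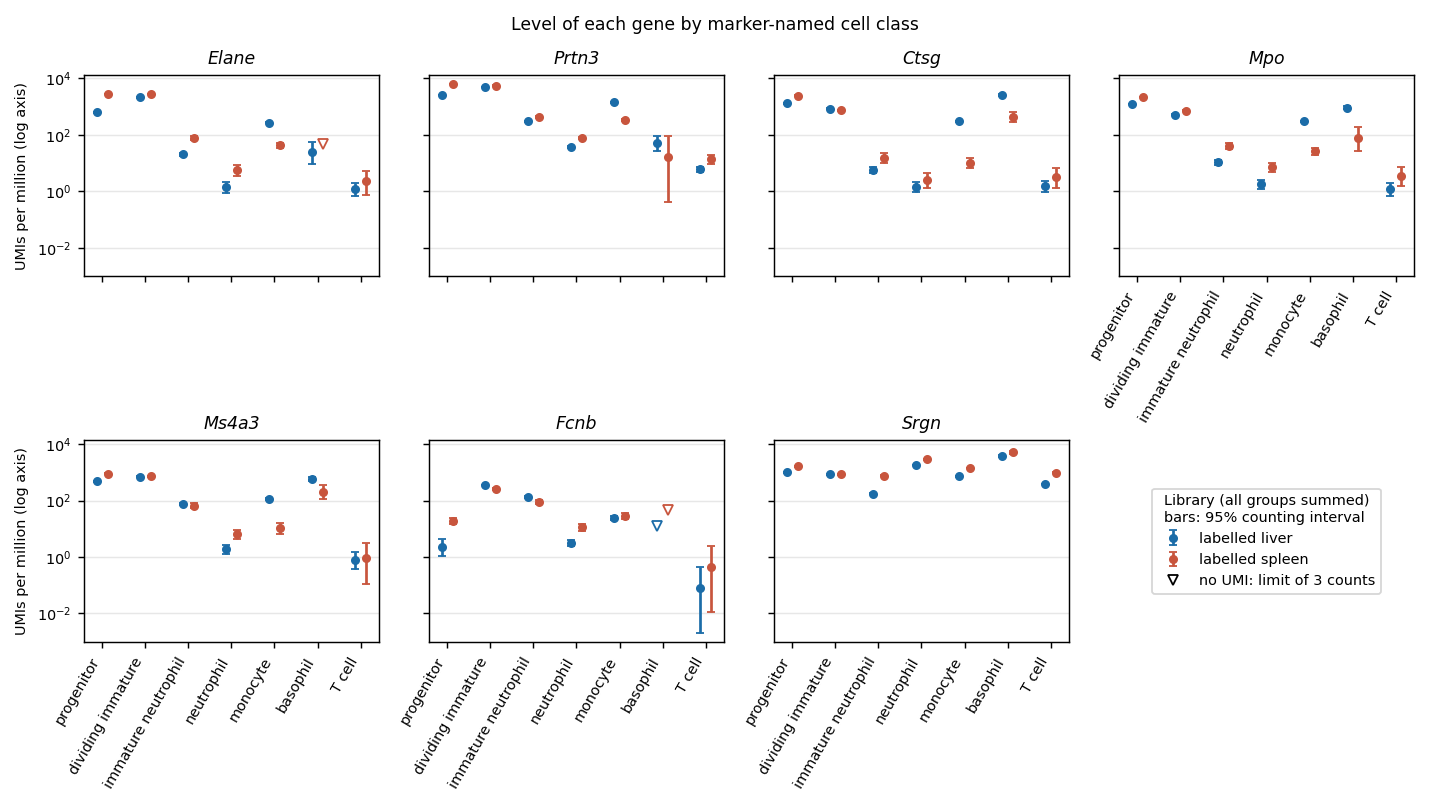
Each panel plots 1 gene's level in CPM (vertical log axis) in each cell class (horizontal axis) for both libraries, with exact 95% Poisson intervals as bars and downward triangles at the limit of 3 counts where no UMI was found. Elane, Mpo, Prtn3 and Ctsg drop by over 10-fold from dividing to non-dividing immature neutrophil-like cells in both libraries, while Srgn is high again in neutrophil-like cells.

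The balance between the proteases gave a measure that does not depend on the total UMIs of a class. For each UMI of Elane there were 4.07 UMIs of Prtn3 (3.9 to 4.25) in progenitor-like, 2.32 (2.28 to 2.36) in dividing immature neutrophil-like, 14.7 (12.7 to 17.0) in immature neutrophil-like and 26.6 (17.7 to 41.9) in neutrophil-like cells of the liver-labelled library. The ratios were 2.33, 2.01, 5.47 (4.55 to 6.63) and 13.8 (9.11 to 21.8) in the spleen-labelled library. The number of Prtn3 transcripts for each transcript of its neighbor Elane was thus lowest in the dividing class of these 4 and higher in the stages without division genes in both libraries. T cell-like cells, in which these UMIs can come from free RNA, had ratios of 5.00 (2.85 to 9.37) and 6.0 (2.31 to 19.8), and the interval of the first lies below that of neutrophil-like cells of its library. In the spleen-labelled library the T cell-like interval holds the 5.47 of immature neutrophil-like cells and overlaps the interval of neutrophil-like cells.

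The Mpo and Ctsg ratios were also lower in the dividing than in the progenitor-like class. There were 2.0 Mpo UMIs for each Elane UMI in progenitor-like and 0.248 in dividing immature neutrophil-like cells of the liver-labelled library, and 0.807 and 0.263 in the spleen-labelled library. Ctsg had ratios of 2.07 and 0.399 in the first and 0.897 and 0.265 in the second. The dividing classes of the libraries had nearly the same Mpo ratio (0.240 to 0.256 and 0.251 to 0.275), whereas the progenitor-like classes differed by more than their intervals (1.91 to 2.10 and 0.786 to 0.830).

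**Figure D3:**
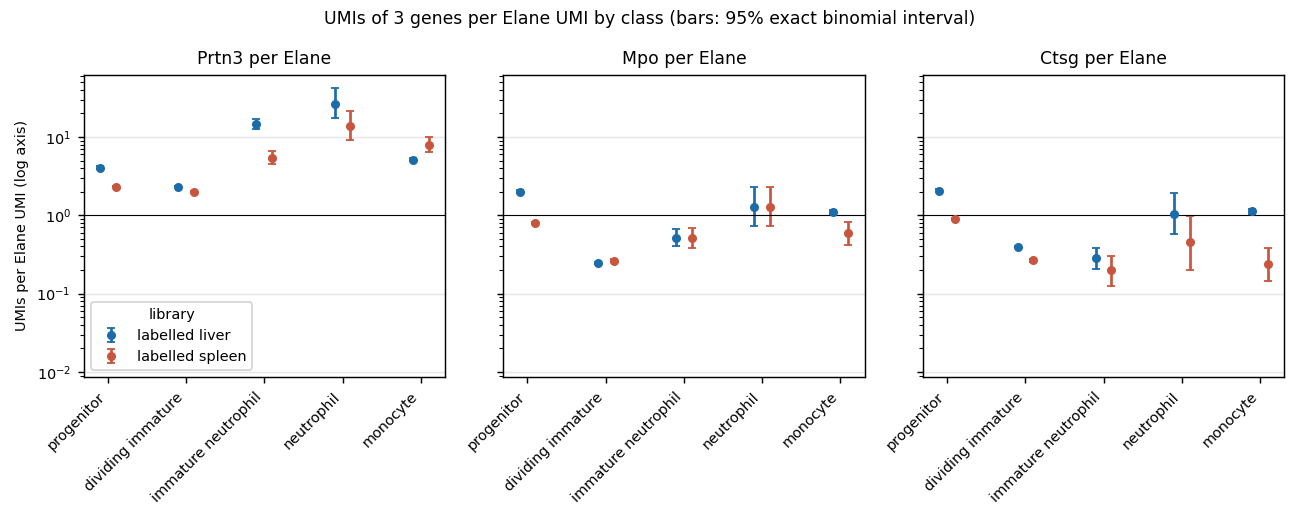
UMIs of Prtn3, Mpo and Ctsg for each Elane UMI (vertical log axis) are plotted by cell class (horizontal axis) for both libraries, with exact 95% intervals. Of the 5 classes plotted, the Prtn3 ratio is lowest in dividing immature neutrophil-like cells and highest in neutrophil-like cells in both libraries, while the Mpo and Ctsg ratios are lower in dividing than in progenitor-like cells.

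Monocyte-like cells were the other holder of protease transcripts, and differed between libraries. In the liver-labelled library they had 273 CPM of Elane, 301 of Mpo, 1406 of Prtn3, 305 of Ctsg and 111 of Ms4a3, and held 14.3% of all Mpo UMIs. A finer clustering divided them into 54 cells with all 8 division markers raised and 228 cells with none. The dividing ones had 577 CPM of Elane, 692 of Mpo, 2857 of Prtn3 and 734 of Ctsg, and the others 83.5, 58.3, 504 and 38.8 CPM. The 54 dividing cells had 7 of 8 monocyte markers raised, but shared their finer cluster with the 117 progenitor-like cells. With the finer clustering used throughout, the progenitor-like class held 66, 44 and 61 cells by group, instead of 32, 28 and 57. The share of protease transcripts in monocyte-like cells of this library therefore depends on where that boundary is set. The monocyte-like cells of the spleen-labelled library had no division marker raised, and had 43.2 CPM of Elane, 25.7 of Mpo, 344 of Prtn3 and 10.4 of Ctsg. The 45 cells with monocyte markers within the progenitor-like class of that library had 473, 443, 2462 and 612 CPM, close to the dividing monocyte-like cells of the other library, while the remaining 115 progenitor-like cells had 3556, 2849, 7804 and 3124 CPM.

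Basophil and mast cell-like cells had a different set of these transcripts. The 23 cells of the liver-labelled library had 2482 CPM of Ctsg (2285 to 2691), 916 of Mpo and 599 of Ms4a3, with 25.3 CPM of Elane (6 UMIs), 50.7 of Prtn3 (12 UMIs) and 0 UMIs of Fcnb, for which the limit is 12.7 CPM. That is 98.0 Ctsg UMIs (44.8 to 268) and 36.2 Mpo UMIs (16.3 to 99.6) for each Elane UMI, against 2.07 and 2.0 in progenitor-like cells, and the intervals of both lie above those of every other class of that library for which a ratio was computed. Ctsg UMIs were found in 19 of the 23 cells. In the spleen-labelled library the 15 cells had 444 CPM of Ctsg from 28 UMIs, in 3 cells, and 0 UMIs of Elane.

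Shares of cells with a UMI were compared after thinning every cell to 500 UMIs, because median depth among the classes compared ran from 3743 UMIs in neutrophil-like cells of the spleen-labelled library to 32718 in dividing immature neutrophil-like cells of the liver-labelled library. Prtn3 was then found in 35.0% of progenitor-like, 61.4% of dividing immature neutrophil-like, 9.16% of immature neutrophil-like, 1.61% of neutrophil-like and 24.8% of monocyte-like cells of the liver-labelled library. T cell-like cells, the background for a gene they should lack, were at 0.206% (0.0669% to 0.480%), with a median depth of 4837 UMIs against 4490.5 for neutrophil-like cells. Without thinning the last of these shares were 14.8% for neutrophil-like and 2.80% for T cell-like cells. The thinned shares in the spleen-labelled library were 65.6%, 68.2%, 8.05%, 2.15% and 12.8%, with 0.946% in T cell-like cells (0.196% to 2.74%). The interval of neutrophil-like cells (1.28% to 3.38%) overlaps that background, so thinning to this depth does not separate them there.

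Elane was found in 11.1% of progenitor-like and 39.8% of dividing immature neutrophil-like cells of the liver-labelled library at this depth, and in 0.248% of immature neutrophil-like and 0% of T cell-like cells (0 of 2427, which allows up to 0.152%). Mpo was in 28.2% and 17.5% of the first 2 classes. The same values in the spleen-labelled library were 34.4% and 44.2% for Elane and 40.0% and 27.9% for Mpo. Srgn was found in 64.5% and 76.7% of neutrophil-like cells, but also in 17.4% and 34.4% of T cell-like cells, which are known to make serglycin when activated, so its share in T cells is not a background.

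Cells of one class varied far more than the counting intervals. The 4 proteases together ranged from 0 to 2172 UMIs per cell, with a median of 6, in vehicle progenitor-like cells of the liver-labelled library, and 18 of these 32 cells had no Elane UMI. In the spleen-labelled library the 66 vehicle progenitor-like cells ranged from 0 to 1473 with a median of 98.5. Dividing immature neutrophil-like cells of the vehicle ranged from 0 to 1180 (median 87) and from 0 to 971 (median 114), with 1 cell without a UMI in each. All 4 genes were found together in 43.8% and 63.6% of vehicle progenitor-like cells and in 48.6% and 49.2% of vehicle dividing cells. The progenitor-like class thus held cells with very many protease transcripts beside cells with almost none.

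The question of the study's treatment groups is whether CBL0137 changed these cells. Counts of cells come first, since they set how many cells carry the protease transcripts. In the liver-labelled library, 32 of 3103 vehicle cells (1.03%) were progenitor-like, against 28 of 3194 at the low dose (0.877%) and 57 of 2138 at the high dose (2.67%), a change of 1.63 percentage points at the high dose (0.868 to 2.47). This change was 0.779 (-0.184 to 1.8) with the dominant hashtag and 0.726 (-0.15 to 1.66) at clustering resolution 1.6, both with intervals that include 0. At resolution 1.6 the class also took in the dividing cells named monocyte-like in the main clustering. Those were 34 vehicle, 16 low dose and 4 high dose cells. The direction was opposite in the spleen-labelled library, with 66 of 822 (8.03%), 80 of 1301 (6.15%) and 14 of 865 (1.62%), a change of -6.41 percentage points (-8.61 to -4.34). The low dose changed the share by -0.155 percentage points (-0.668 to 0.351) and -1.88 (-4.30 to 0.402), both with intervals that include 0.

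Dividing immature neutrophil-like cells went from 3.45% to 1.96% at the high dose in the liver-labelled library (-1.48 percentage points, -2.37 to -0.566) and from 7.18% to 4.97% in the spleen-labelled library (-2.21, -4.61 to 0.152). The neutrophil-like share was 40.3% in the vehicle, 35.4% at the low dose and 7.30% at the high dose in the first library, and 31.6%, 37.7% and 10.1% in the second. Monocyte-like cells were 5.09%, 3.04% and 1.26%, and 8.76%, 6.0% and 4.39%. Shares are of all cells with 1 hashtag, so a share can also change because another class did. The liver-labelled library held 18.8%, 26.5% and 46.6% T cell-like cells in the same order of groups. In the spleen-labelled library a further 1532 barcodes had no hashtag call but most hashtag UMIs from A0310, which bears on every share of that group; with hashtags called by MULTIseqDemux or by the dominant hashtag the change in the progenitor-like share there was -7.18 and -7.17 percentage points, and with progenitors gated cell by cell it was -3.20.

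**Figure D4:**
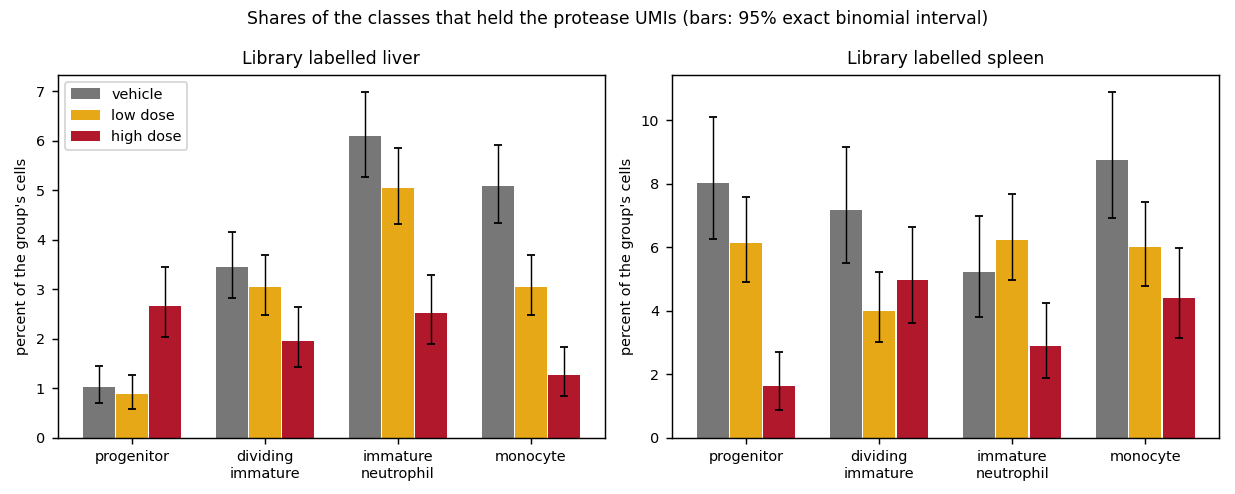
Percent of each group's cells (vertical axis) that fell in each of 4 classes (horizontal axis) is plotted for vehicle, low dose and high dose (colors) in both libraries (panels), with exact 95% Clopper-Pearson intervals. The progenitor-like share is higher at the high dose in the liver-labelled library (2.67% against 1.03%) and lower in the spleen-labelled library (1.62% against 8.03%).

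Within progenitor-like cells of the liver-labelled library, the 4 proteases were lower at the high dose. Elane was at 1349 CPM in the vehicle, 429 at the low dose and 320 at the high dose, a log2 ratio of -2.07 (-2.21 to -1.94) for the high dose and -1.65 (-1.81 to -1.50) for the low dose. Prtn3 was at 4028, 2903 and 1537 CPM, with log2 ratios of -1.39 (-1.46 to -1.33) and -0.47 (-0.54 to -0.41). Ctsg was at 1992, 1670 and 719 CPM, with log2 ratios of -1.47 and -0.25. Mpo was at 1868, 1453 and 805 CPM, with log2 ratios of -1.22 and -0.36. Vehicle cells were thus highest and high dose cells lowest for each of the 4. The summed level of the 4 had a log2 ratio of -1.45 (-1.49 to -1.41) at the high dose and -0.52 (-0.56 to -0.47) at the low dose. The low dose direction was lost when each barcode was given its dominant hashtag, with 0.0212 (-0.00819 to 0.0505) for the sum, 0.113 for Mpo and 0.313 for Ctsg, and Ctsg was 0.024 with MULTIseqDemux. Clustering was repeated for the dominant hashtag, and the class then held 93, 57 and 76 cells instead of 32, 28 and 57.

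Of the other members in these cells, Ms4a3 was at 680, 549 and 341 CPM (log2 ratio -0.999 at the high dose, -1.15 to -0.85), and Srgn at 1089, 943 and 970 CPM (-0.17, -0.27 to -0.06). Fcnb had 4, 0 and 6 UMIs and was too low for a ratio. A gene was called lower or higher where its log2 ratio was at or beyond 1 and both groups together had at least 50 UMIs. On this rule 4 of the 6 members with enough UMIs were lower at the high dose and 0 higher, where 1.18% of all 6373 genes were lower and 2.81% higher. The members' median log2 ratio was -1.30, against 0.0174 over all genes. At the low dose Elane alone was called lower, 1 of 6, against a background of 0.699% lower and 0.777% higher among 5147 genes, and the members' median was -0.336.

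Cells without any UMI of the 4 genes were 6 of 32 in the vehicle, 6 of 28 at the low dose and 9 of 57 at the high dose, so cells with at least 1 such UMI were not fewer in share. Cells with all 4 were. All 4 genes were found together in 14 of 32 vehicle cells (43.8%), 10 of 28 low dose cells (35.7%) and 9 of 57 high dose cells (15.8%). At 500 UMIs per cell, Elane was found in 21.9% of vehicle cells (9.28% to 40.0%), 7.14% of low dose cells and 3.51% of high dose cells (0.428% to 12.1%). Ctsg was found in 37.5%, 32.1% and 12.3% of cells, and Prtn3 in 43.8%, 53.6% and 31.6%. The median cell did not follow the sums: it had 6, 37.5 and 13 UMIs of the 4 genes, and the sums rested on a few cells, with up to 2172 UMIs in the vehicle and 2094 at the high dose. Leaving out the 3 cells with most protease UMIs in each group was tried only once the data had been seen, and the log2 ratio of the sum was -1.84 at the high dose and -0.24 at the low dose.

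The makeup of the class also moved. The summed level of the 7 erythroid markers (all 7 found in each group) in progenitor-like cells of the liver-labelled library was 1401 CPM in the vehicle, 3815 at the low dose and 5161 at the high dose, while that of the 8 granulocyte progenitor markers was 843, 1080 and 1048 CPM. The stem and early progenitor list was at 383, 315 and 386 CPM and the monocyte list at 380, 336 and 203 CPM. Hemoglobin RNA made up most of the erythroid sum at the high dose, with Hbb-bs at 599, 2163 and 3018 CPM in the 3 groups, while Klf1, the erythroid regulator, was at 68.7, 47.5 and 56.4 CPM. The part of this difference in makeup in the protease values was not tested.

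Progenitor-like cells of the spleen-labelled library, as named by clustering, did not show this fall when hashtags were called with HTODemux. Elane was at 2988 CPM in the vehicle, 2144 at the low dose and 5232 at the high dose, with log2 ratios of 0.81 (0.73 to 0.88) for the high dose and -0.48 (-0.54 to -0.42) for the low dose. Prtn3 was at 6764, 5376 and 10839 CPM, with log2 ratios of 0.68 and -0.33. Ctsg was at 2633, 2157 and 3530 CPM (0.42 and -0.29), and Mpo at 2204, 2208 and 2317 CPM (0.07, with an interval from -0.04 to 0.18, and 0.0026). High dose cells were thus highest for Elane, Prtn3 and Ctsg, and Mpo was at the same level within counting error in all 3 groups. The sum had a log2 ratio of 0.59 (0.55 to 0.62) at the high dose and -0.30 (-0.32 to -0.27) at the low dose.

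The higher level rests on only 14 high dose cells, and its direction is not stable. It became -0.0175 when hashtags were called with MULTIseqDemux (29 cells), -0.146 when each barcode was given its dominant hashtag (32 cells) and -0.0618 when progenitors were gated cell by cell by UMIs of at least 2 of Kit, Cd34, Myb and Cebpa (26 cells), and was 0.283 without the 3 cells of each group with most protease UMIs. Of the 14 cells, 3 came from the finer subgroup with monocyte markers, as against 20 of 66 vehicle cells. The summed immature neutrophil markers were at 983, 757 and 1587 CPM in vehicle, low dose and high dose cells, and the granulocyte progenitor markers at 833, 790 and 445 CPM. In the liver-labelled library the log2 ratio of the sum at the high dose was below 0 under every alternative, from -1.84 to -0.836.

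Of the other members in these cells, Ms4a3 had a log2 ratio of 0.68 at the high dose and -0.20 at the low dose, Srgn 0.36 and -0.52, and Fcnb, with 51, 20 and 9 UMIs, -0.38 and -1.79. On the rule above 0 of 7 members were called in either direction at the high dose, where 4.7% of 4684 genes were lower and 0.683% higher, and their median log2 ratio was 0.423 against -0.0617 over all genes. At the low dose Fcnb alone was called lower, 1 of 7, against 0.865% lower and 1.01% higher of 6708 genes. Elane had thus a lower level at the low dose in both libraries, by a log2 ratio of -1.65 in one and -0.48 in the other, where the cell by cell gate turned the value to 0.0978.

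**Figure D5:**
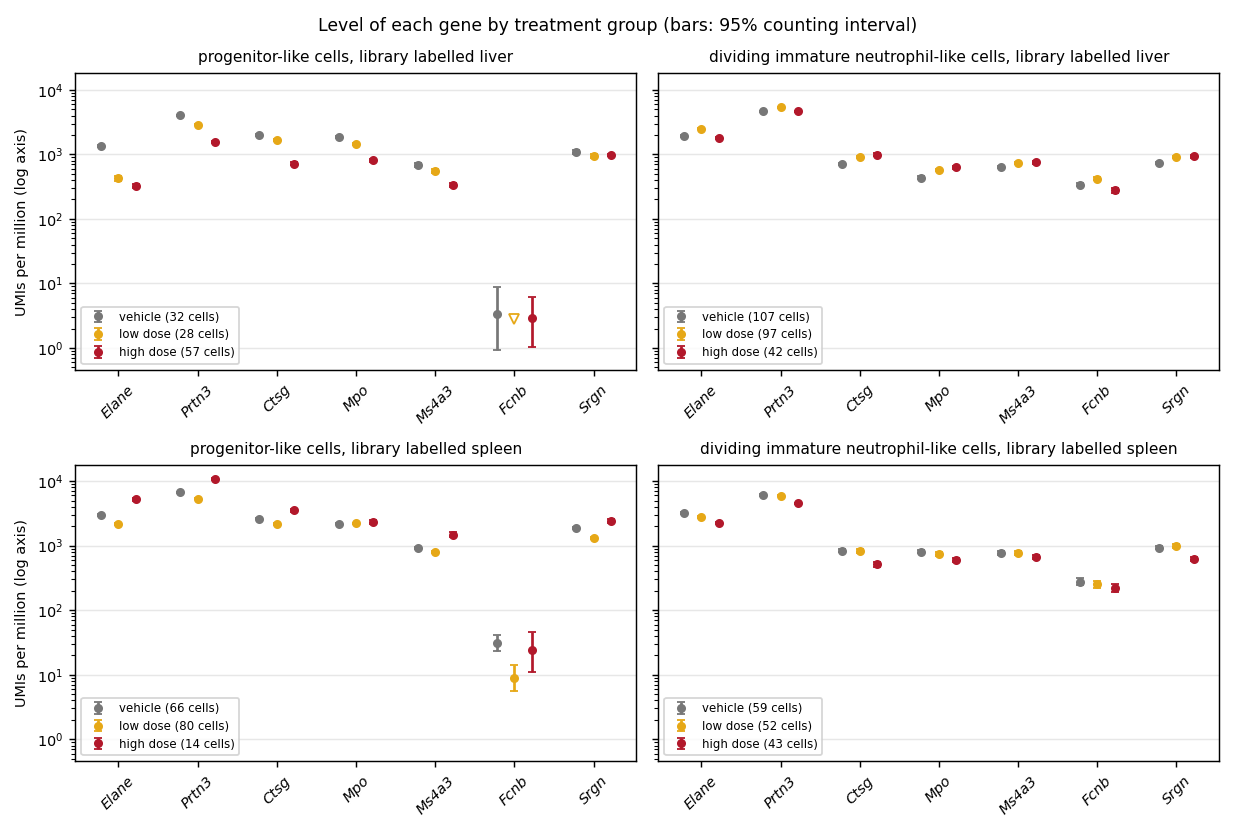
The level of each gene in CPM (vertical log axis) in progenitor-like and dividing immature neutrophil-like cells is plotted for vehicle, low dose and high dose in both libraries, with exact 95% Poisson intervals for counting error. Elane, Mpo, Prtn3 and Ctsg in progenitor-like cells step down from vehicle to high dose in the liver-labelled library and not in the spleen-labelled library, while no member passes 2-fold in the dividing class.

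Dividing immature neutrophil-like cells, which held most Elane transcripts of the liver-labelled library, had log2 ratios between -0.70 and 0.55 for every member, at both doses and in both libraries. Elane there was at 1932 CPM in the vehicle, 2497 at the low dose and 1806 at the high dose, Prtn3 at 4633, 5358 and 4664 CPM, and Fcnb at 337, 419 and 276 CPM. Mpo was at 433, 569 and 632 CPM and Ctsg at 714, 915 and 988 CPM, with log2 ratios of 0.55 and 0.47 at the high dose. The same genes in the spleen-labelled library had log2 ratios at the high dose of -0.52 for Elane, -0.43 for Prtn3, -0.44 for Mpo, -0.70 for Ctsg and -0.33 for Fcnb. The largest ratio of a member in this class was that of Ctsg in the spleen-labelled library, in either direction and over both doses and libraries. Its direction there was opposite to that in the liver-labelled library, and the difference was not tested.

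In immature neutrophil-like cells, the next stage, Elane and Mpo were called lower at both doses in both libraries. Elane in immature neutrophil-like cells of the liver-labelled library was at 35.0, 8.82 and 3.13 CPM (167, 32 and 5 UMIs), with log2 ratios of -1.99 (-2.58 to -1.44) at the low dose and -3.48 (-5.13 to -2.23) at the high dose. At clustering resolution 0.4 the low dose value turned to 0.528 (-1.02 to 2.1). The class at that resolution held 131, 113 and 78 cells instead of 189, 161 and 54. Mpo was at 15.3, 6.34 and 6.26 CPM. Prtn3 was at 341, 283 and 217 CPM, with a log2 ratio of -0.65 at the high dose. Ctsg was higher at the high dose, at 25.7 against 2.94 CPM, but all 41 of these UMIs came from 1 cell. The sums rest in part on few cells here too: 10 of the 404 cells held 1198 of the 3364 UMIs of the 4 proteases. All 4 genes were found together in 3 of 189 vehicle cells and in 0 cells at either dose. At the high dose 2 of 7 members were called lower, against 1.33% of 4965 genes, and at the low dose 2 of 6 against 0.516% of 5615 genes.

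The same class of the spleen-labelled library gave larger ratios from fewer cells. Elane was at 232 CPM in 43 vehicle cells, 21.6 in 81 low dose cells and 0 in 25 high dose cells, where the limit of 3 counts is 8.01 CPM. Prtn3 was at 889, 268 and 158 CPM, with log2 ratios of -1.73 and -2.50, and Mpo at 118, 7.96 and 10.7 CPM. With Ms4a3, 4 of 6 members were called lower at each dose, against 0.84% of 1309 genes at the high dose and 2.56% of 1760 at the low dose. These sums rest on few cells: 10 cells held 812 of the 971 UMIs of the 4 proteases. The share of cells with any such UMI was 19 of 43 (44.2%), 35 of 81 (43.2%) and 14 of 25 (56.0%), so it was not lower at either dose.

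In monocyte-like cells of the liver-labelled library, 5 of 7 members were called lower at the high dose, against 3.7% of 6764 genes. Elane was at 293, 301 and 90.6 CPM in vehicle, low dose and high dose cells, Prtn3 at 1653, 1189 and 771 CPM, Mpo at 324, 316 and 143 CPM, and Ctsg at 368, 292 and 24.2 CPM. The low dose left Elane and Mpo at the vehicle level. The dividing subgroup, which carries most of the transcripts, was 34 of 158 cells in the vehicle, 16 of 97 at the low dose and 4 of 27 at the high dose. As this subgroup shared a finer cluster with the progenitor-like cells, the calls are for a class whose boundary changed with resolution. In the spleen-labelled library 1 of 3 members with enough UMIs was called lower, against 1.22% of 3453 genes: Elane, at 56.8 CPM in the vehicle and 19.5 CPM at the high dose.

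Neutrophil-like cells held enough UMIs of Prtn3 and Srgn only. Srgn was at 2005 CPM in the vehicle, 1833 at the low dose and 1186 at the high dose in the liver-labelled library, and at 2657, 3620 and 1471 CPM in the spleen-labelled library. The log2 ratios at the high dose were -0.76 and -0.85, while the median over all genes in these cells was -0.520 and -0.132. Prtn3 had log2 ratios of -0.04 and -0.49 at the high dose, and -0.67 and -1.16 at the low dose. The high dose value of the spleen-labelled library turned to 0.455 (0.0112 to 0.908) with MULTIseqDemux, and the low dose value of the liver-labelled library to 0.00266 with the cell by cell gate. That gate names no immature classes, so its neutrophil-like cells can include immature ones. They numbered 1485, 1338 and 253 there, against 1252, 1132 and 156 in the clustered class. The makeup of the clustered neutrophil-like class also differed. In the liver-labelled library 122 of 156 high dose cells lay in 1 cluster with Srgn at 1166 CPM, against 167 of 1252 vehicle cells. The largest neutrophil-like cluster, at 2761 CPM, held 651 vehicle and 9 high dose cells. In the spleen-labelled library 71 of 87 high dose and 71 of 260 vehicle cells lay in a cluster at 1256 CPM. A cluster there at 5067 CPM held 120 low dose cells of its 124. Median depth per neutrophil-like cell of the liver-labelled library was 3737 UMIs in the vehicle and 15844.5 at the high dose. The part of makeup and depth in these values was not tested.

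Over all cells with a hashtag, the summed level of the 4 proteases had a log2 ratio of -0.52 at the high dose in the liver-labelled library (1887 to 1313 CPM) and -1.78 in the spleen-labelled library (5412 to 1574 CPM). At the low dose the ratios were -0.13 and -0.62. Fcnb alone was called lower in the first library, 1 of 7 against 4.33% of 11559 genes. In the second 6 of 7 were called lower against 1.57% of 10934 genes: Elane -1.65, Mpo -2.25, Prtn3 -1.67, Ctsg -2.11, Ms4a3 -1.57 and Fcnb -1.23. Progenitor-like cells held 61.7%, 70.5% and 49.3% of the protease UMIs of the 3 groups there, and 21.8%, 16.2% and 31.1% in the liver-labelled library.

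Other genes of the granule pathway were described with lists. Among 12 primary granule and promyelocyte genes, 3 were lower and 0 higher at the high dose in progenitor-like cells of the liver-labelled library, with a median log2 ratio of -0.545, where 1.18% of all genes were lower and 2.81% higher. These were Cst7 (cystatin F, an inhibitor of cathepsins, -1.22), Rab44 (-1.23) and Hp (haptoglobin, -1.62). Hp was also on a list of 3 gelatinase granule genes, of which it was the only 1 with enough UMIs, so its fall is not particular to primary granules. Prss57, a further serine protease of primary granules, was at 82.3 CPM in the vehicle and 43.5 CPM at the high dose (-0.92), and Ctsc, which activates the granule proteases by removing a dipeptide, at 190 and 102 CPM (-0.89). Calr, a chaperone of myeloperoxidase, was at 1218 and 907 CPM. In the spleen-labelled library 1 of the 12 was lower, Lyz2 (lysozyme, -1.75), and 0 were higher, with a median of 0.109 and Prss57 at 129 and 251 CPM, where 4.7% of all genes were lower and 0.683% higher. The list had 0 of 11 and 0 of 12 members called at the low dose.

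The further lists are read against the same shares over all genes, 1.18% lower and 2.81% higher in the first library and 4.7% and 0.683% in the second. Of the regulators of the lineage, 1 of 8 was lower in the liver-labelled library at the high dose, Irf8 (which favors the monocyte fate, -1.66), with Myb at 263 and 256 CPM. In the spleen-labelled library Cebpe was higher (1.09) and Myb lower (-1.34) among 8. Of the inhibitors, Slpi (secretory leukocyte protease inhibitor, which blocks elastase and cathepsin G) was lower in the liver-labelled library, at 148 and 31.5 CPM (-2.24), and Stfa2 was higher (1.57), among 4 with enough UMIs, with 0 of 3 called in the spleen-labelled library. Among secondary granule genes, 1 of 4 was higher in the liver-labelled library (Ifitm6, 1.61), and Ngp (1.86) and Camp (1.40) were higher and Mmp8 lower (-2.35) among 6 in the spleen-labelled library. The division list had 0 of 8 called in either library, with medians of -0.205 and -0.0264. The protease genes that bind serglycin in other cells had too few UMIs in the liver-labelled library, while in the spleen-labelled library Gzma had 2 UMIs in the vehicle and 89 at the high dose, and Mcpt8 89 and 2.

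The vehicle cells of the libraries were set side by side, with no comparison of organs. In progenitor-like cells the level in the spleen-labelled library was above that in the liver-labelled library by a log2 ratio of 1.15 for Elane, 0.75 for Prtn3, 0.40 for Ctsg, 0.24 for Mpo, 0.43 for Ms4a3 and 0.80 for Srgn. In dividing immature neutrophil-like cells the values were 0.72, 0.39, 0.23 and 0.91 for the first 4. Immature neutrophil-like cells differed more, by 2.73 for Elane, 1.38 for Prtn3 and 2.67 for Srgn, and monocyte-like cells the other way, by -2.37 for Elane, -3.94 for Mpo and -4.42 for Ctsg. Library, organ and cell makeup cannot be told apart with 1 library for each label.

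The genes most like the 4 proteases over clusters were found by the Pearson correlation of log2(CPM + 10) with the mean of the 4, as a description over clusters that share a library. The clusters were those taken before unnamed ones were divided. Over 21 clusters of the liver-labelled library the genes were E2f8 (0.96), Ttk (0.939), Hist1h2af (0.935), Nuf2 (0.923) and Foxm1 (0.914), all genes of cell division or DNA replication. There the cluster with the 117 progenitor-like cells also held 34 dividing cells with 6 of 8 T cell markers raised and Elane at 3.74 CPM. The part of this joining in the correlations was not tested. Over 19 clusters of the spleen-labelled library the genes were Prss57 (0.907), Plppr3 (0.843), Mfsd13a (0.793), Prom1 (0.77) and Stk16 (0.759). The same measure was 0.957 and 0.97 for Ms4a3, 0.563 and 0.73 for Fcnb, and 0.0414 and 0.116 for Srgn. Prss57 levels followed the same classes, at 54.8 CPM in progenitor-like, 89.3 in dividing immature neutrophil-like, 11.9 in immature neutrophil-like and 7.43 in neutrophil-like cells of the liver-labelled library.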

How the data were processed

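The submitters made droplet libraries with the 10x Genomics platform and hashtag antibodies. What the authors deposited are Cell Ranger's filtered tables of UMI counts, whole and not normalized, for each gene or hashtag in each barcode, and no cell types. The submitters' processing notes name Cell Ranger 6.0.0, Seurat and the build mm10, while the matrix header gives Cell Ranger 5.0.0. Each barcode had at least 500 UMIs, and mitochondrial UMIs reached 98.9% and 99.0% of a barcode, so low-quality cells remain. Hashtags were called with HTODemux (Seurat 5.3.0, quantile 0.99), and barcodes with 1 hashtag were kept, which removed doublets between groups (616 and 215 barcodes). Scrublet (scanpy 1.11.5) called 248 and 1 doublets, which were removed in an alternative only; with 1 call it did not work in the spleen-labelled library.

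Each library was processed with SCTransform (0.4.2), 30 principal components and shared nearest neighbor clusters at resolution 0.8 in R 4.3.3. The 7 genes and 12 granule genes were left out of the variable features (2985 and 2982 remained). A cluster was named where at least 3 markers of a list had a log2 fold of at least 1 (10 CPM added) in at least 20% of its cells, by the list with the largest share raised. It stayed unnamed where another list had more markers among its 10 leading genes by fold, or where its median UMIs were less than the library's median divided by 3 and none of its list's markers was among those 10. Clusters left unnamed were divided by the clusters at resolution 1.6. These naming thresholds and the division were chosen after seeing the data, and the members and lists were chosen with earlier results of these data known. For each class and group the UMIs of its cells were added up and expressed per 1000000 (CPM), with exact Poisson intervals. Log2 ratios of CPM carry exact conditional binomial intervals, and shares carry Clopper-Pearson intervals. Differences of shares have limits from both exact intervals. Computation used Python 3.11.15 with scipy 1.17.1, numpy 2.4.6 and pandas 2.3.3.

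Genes named are the 7 members, fixed lists of granule, inhibitor, regulator and division genes, and the 5 genes most alike in pattern among those with at least 200 UMIs. On data simulated at the depth of progenitor-like cells, true values lay inside the interval for 95.9% of 6210 genes (liver-labelled library) and for 96.3% of 4718 (spleen-labelled library). The simulated sums were Poisson draws without variation between cells, which is the model that the intervals assume. This coverage therefore checks the computation only and does not bear on the spread between cells or mice. Alternatives tried were hashtag calls by MULTIseqDemux or by the dominant hashtag (10 or more UMIs, and 3 times those of the next), keeping cells with 200 or more genes and mitochondrial UMIs under 10%, removal of Scrublet doublets, resolutions 0.4 and 1.6, all variable features, cells gated by markers, averaging CPM cell by cell, leaving the 20 most abundant genes out of the total, and thinning to 1000 UMIs or none. Leaving out the 3 progenitor-like cells with most protease UMIs was added after seeing the data. A further check of these cells is not reported here. A comparison of organs was not made. Protein sequences and the study's other experiments were not used here.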

Additional observations from a re-analysis of the deposited data

Results flagged for a closer look

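In the clustered progenitor-like cells the libraries had opposite directions at the high dose with HTODemux calls, and the difference between libraries was not tested. The share of these cells changed by 1.63 percentage points in the liver-labelled library and by -6.41 in the spleen-labelled library. The log2 ratios against the vehicle in the first and second library were -2.07 and 0.808 for Elane, -1.39 and 0.68 for Prtn3, -1.47 and 0.423 for Ctsg, and -0.999 and 0.678 for Ms4a3. The second values rest on 14 high dose cells, and their direction was not stable: the sum of the 4 proteases there was -0.0175 with MULTIseqDemux, -0.146 with the dominant hashtag and -0.0618 with the marker gate, the same direction as in the first library.

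Outside the progenitors, Ctsg in dividing immature neutrophil-like cells had log2 ratios of 0.47 and -0.699 at the high dose, and Srgn in immature neutrophil-like cells 0.842 and -0.563, again without a test of the difference.

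Barcodes without a hashtag call enter no comparison. Among those whose most abundant hashtag was A0310, the 4 protease genes had 34 UMIs in 61 barcodes of the liver-labelled library and 1264 UMIs (283 CPM) in 1532 barcodes of the spleen-labelled library, both above the limit of 3 counts. The part of these barcodes in the high dose values of the spleen-labelled library was not tested beyond the alternative hashtag calls.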

How the results depend on the processing

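No paired analysis was possible because each group is 1 pooled sample in each library and replicates carry no numbers, and for the same reason no replicate could be left out. Fcnb in progenitor-like cells and Elane, Mpo and Ctsg in neutrophil-like cells had few UMIs, which limits what can be said of them. Of 136 alternative values for the 14 summary results, 70 moved by less than their counting interval, 61 moved further and 5 changed direction. A change of direction was counted only where the interval of the main value excluded 0. The neutrophil-like high dose ratio of the liver-labelled library, whose interval includes 0, also turned above 0 under most alternatives and is not among the 5. The cause was not tested for any of them. Classes were named anew under the alternatives for hashtags, cell filter, resolution and variable features, so a class can hold other cells there. Removing Scrublet doublets moved none of the 14, although Scrublet called 1 doublet in the spleen-labelled library. The log2 ratio of the 4 proteases in progenitor-like cells at the high dose stayed below 0 in the liver-labelled library under every alternative run, but not above 0 in the spleen-labelled library.

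The values for the liver-labelled library come first. The percent of protease UMIs in progenitor-like cells was 21.2 with MULTIseqDemux, 41 with the dominant hashtag, 22.9 with the cell filter, 30.9 at resolution 1.6 and 32.1 with the marker gate. The change in the progenitor-like share was 0.779 points with the dominant hashtag, 0.726 at resolution 1.6 and 2.97 with all variable features. For the 4 proteases over all cells, the high dose ratio was -0.48 with MULTIseqDemux, -0.82 as a mean over cells and -0.69 without the 20 most abundant genes, and the low dose ratio -0.167 with MULTIseqDemux, -0.156 with the dominant hashtag, -0.152 with the cell filter and -0.174 as a mean over cells. In progenitor-like cells the high dose ratio was -1.02 with MULTIseqDemux, -0.836 with the dominant hashtag, -1.55 with the cell filter, -1.1 at resolution 1.6, -1.68 with all variable features, -1.15 with the marker gate, -1.84 without the 3 top cells and -1.67 as a mean over cells. The low dose ratio there was -0.245 with MULTIseqDemux, 0.0212 with the dominant hashtag, -0.603 with the cell filter, -0.274 at resolution 1.6, -0.686 with all variable features, -0.421 with the marker gate and -0.242 without the 3 top cells. The neutrophil-like high dose ratio, -0.126 with an interval that includes 0, was 0.282 with MULTIseqDemux, 0.274 with all variable features, 0.306 with the marker gate and 0.26 as a mean over cells. It was also above 0 with the cell filter (0.143), at resolutions 0.4 and 1.6 (0.171 at each) and without the 20 most abundant genes (0.0878). With the dominant hashtag (-0.122) and without Scrublet doublets (-0.109) it stayed below 0. The gated class can include immature neutrophils, since the gate has no class for them.

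For the spleen-labelled library the percent of protease UMIs in progenitor-like cells was 64.1 with MULTIseqDemux, 64.3 with the dominant hashtag, 61.5 with the cell filter, 64.4 and 58.2 at resolutions 0.4 and 1.6, and 40.2 with the marker gate. The change in share was -4.32 points at resolution 1.6 and -3.2 with the marker gate. Over all cells the high dose ratio was -2.12 with MULTIseqDemux, -2.22 with the dominant hashtag, -1.65 with the cell filter, -1.41 as a mean over cells and -1.86 without the 20 most abundant genes, and the low dose ratio -0.594, -0.684, -0.593 and -0.867 under the first 4 of these. In progenitor-like cells the high dose ratio was -0.0175 with MULTIseqDemux, -0.146 with the dominant hashtag, 0.675 with the cell filter, 0.422 at resolution 1.6, -0.0618 with the marker gate, 0.283 without the 3 top cells, 0.65 as a mean over cells and 0.625 without the 20 most abundant genes. The low dose ratio there was -0.379 with the dominant hashtag, -0.251 with the cell filter, -0.434 at resolution 1.6, -0.0177 with the marker gate and -0.261 as a mean over cells. The neutrophil-like high dose ratio was 0.183 with MULTIseqDemux and -0.994 with all variable features.

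Among 1607 alternative values for single genes, 999 moved by less than their interval, 576 moved further and 32 changed direction. In progenitor-like cells of the liver-labelled library these were Ctsg at the low dose (0.024 with MULTIseqDemux, 0.313 with the dominant hashtag), Mpo at the low dose (0.113 with the dominant hashtag, 0.0883 without the 3 top cells), Ms4a3 at the low dose (0.256 with the dominant hashtag, 0.0504 at resolution 1.6) and Srgn (high dose 0.152 with MULTIseqDemux, 0.36 with the dominant hashtag and 0.279 at resolution 1.6, and low dose 0.02, 0.374, 0.146 and 0.159 without the 3 top cells). Elane turned to 0.286 in dividing immature neutrophil-like cells at the high dose and to 0.528 in immature neutrophil-like cells at the low dose, both at resolution 0.4. Both classes held other cells there: 206, 195 and 57 in the dividing class instead of 107, 97 and 42, and 131, 113 and 78 in the other. The marker gate gave, in neutrophil-like cells, 0.00266 for Prtn3, 0.0985 for Ms4a3 and 0.0692 for Srgn at the low dose and 0.659 for Ms4a3 at the high dose. These gated cells can include immature neutrophils and are not the same class as the clustered one. In progenitor-like cells of the spleen-labelled library at the high dose, Ctsg was -0.169 with MULTIseqDemux, -0.323 with the dominant hashtag and -0.38 with the marker gate, and the dominant hashtag gave -0.0719 for Prtn3, -0.0499 for Ms4a3 and -0.0108 for Srgn. At the low dose there the marker gate gave 0.0978 for Elane, 0.00852 for Prtn3, 0.0245 for Ms4a3 and 0.828 for Fcnb. The last turned values of that library were Srgn in immature neutrophil-like cells (0.038 at the low dose with MULTIseqDemux, 0.00722 at the high dose at resolution 1.6) and high dose Prtn3 in neutrophil-like cells (0.455 with MULTIseqDemux). With MULTIseqDemux no dividing class was named in that library. Its immature neutrophil-like class then held 86, 109 and 81 cells, and 92, 134 and 85 at resolution 1.6, instead of 43, 81 and 25.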

Other observations

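In the liver-labelled library an unnamed group of 162 cells, with a median of 884 UMIs and a median of 21.4% mitochondrial UMIs, held 730 UMIs of the 4 protease genes, all of them in 7 cells. It had 5 of 8 T cell markers raised and none of these among its 10 leading genes. Among barcodes without a hashtag call, those with most hashtag UMIs from A0305 in the spleen-labelled library had 77 protease UMIs in 44 barcodes, or 1050 CPM, and those of the vehicle hashtag 50 in 51 barcodes, or 372.5 CPM. In the liver-labelled library the vehicle hashtag had 181 protease UMIs in 284 barcodes (112.2 CPM) and A0305 had 20 in 195 barcodes (26.99 CPM).

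Among inhibitors of granule proteases at the low dose, Stfa2 and Stfa3, stefins that inhibit cysteine cathepsins, were past 2-fold higher in progenitor-like cells of the spleen-labelled library, with log2 ratios of 2.71 and 2.66, among 5 with enough UMIs. They had 8 and 11 UMIs in the vehicle and 71 and 94 at the low dose, and 1.01% of 6708 genes were past 2-fold higher there. In progenitor-like cells of the liver-labelled library, the mast cell and basophil proteases Cpa3 (5 UMIs in the vehicle, 102 at the low dose) and Mcpt8 (30 and 78) were past 2-fold higher at the low dose, as were 0.777% of 5147 genes. Srgn was at 1089 and 943 CPM in the same cells.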
